A study of Mus musculus with 18 samples.

Results

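The MYC, MAX and MXD network was followed through the activation of plasmacytoid dendritic cells (pDCs) by imiquimod. The network was taken as the genes with the symbols Myc, Mycl, Mycn, Max, Mxd1, Mxd3, Mxd4, Mxi1, Mnt and Mga, which are 10 of the 54532 genes in the count table. All 10 symbols were found, each with 1 Ensembl identifier. Of these, 9 passed the filter on low counts and were tested, and Mycn did not.

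The pDCs were grown from the bone marrow of wild-type C57BL/6 mice for 7 days with 80 ng/mL Flt3L, a growth factor of dendritic cell development, and were then enriched on beads against B220 to a routine purity of 80%. All 6 groups share this origin: untreated cells at 0 h, cells given a vehicle that the series calls LAL, for Limulus amebocyte lysate, at 0, 6 and 16 h, and cells given imiquimod (IMQ), an agonist of the RNA sensor TLR7, at 2.5 µg/mL for 6 or 16 h. Whether LAL here means the lysate itself or reagent water is not said. Each group had 3 libraries of rRNA-depleted total RNA, sequenced as directional pairs of 75 nt. Whether the 3 came from separate mice, cultures or wells is not stated in the labels. P-values therefore reflect library-to-library spread alone, and that spread may be technical.

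Total counts per library ran from 10609741 to 13447018. The 10 pDC markers checked (Siglech, Bst2, Tcf4, Ccr9, Irf8, Ly6d, Cox6a2, Runx2, Spib and Klk1) were detected in all 6 groups, with a summed level of 7369 to 7485 TMM-scaled CPM in untreated cells. Markers of conventional dendritic cells were present as well: the 6 cDC1 markers summed to 1534 to 1564 CPM in untreated cells and the 5 cDC2 markers to 329 to 338 CPM. The 4 neutrophil markers and the 4 T and NK cell markers each summed to at most 1.59 CPM in any library. In bulk RNA, fewer cells of a type and less RNA per cell cannot be told apart.

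MYC proteins are basic helix-loop-helix leucine zipper transcription factors that bind DNA as pairs with MAX and activate genes of ribosome production, nucleotide synthesis and cell growth. The MXD proteins, MXI1, MNT and MGA pair with the same partner and recruit repressor complexes to the same class of sites, so the outcome depends on which members a cell makes. Dendritic cells are known for expressing Mycl in place of Myc as they mature from progenitors.

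Pairs with MAX bind the E-box CACGTG, and this motif was searched in the promoter windows of the members, from 250 bases before to 50 bases after the RefSeq start (GRCm38.p6). A window was found for 9 members, all but Myc. The motif reads the same on both strands, so 1 search covers both. It was present in Mxd4, Mnt and Max, 3 of the 9 members (33.3%), against 2187 of 27025 genes with a window (8.09%). A match is a description of the letters and not a bound site. The windows that hold it are printed 5′ to 3′ on the gene's strand, from RefSeq, with the E-box in capitals. They were printed because 2 of the 3 genes are repressor members that were lower with imiquimod at both times. The third, Max, was higher at both times, and Mycl, lower at both, has no E-box in its window. A link between the motif and the levels was not tested. The E-box of Mxd4 begins at position -219 from the start (minus strand, chr5:34187711-34187960), that of Mnt at -123 (plus strand, chr11:74830674-74830923), and that of Max at -3, across the RefSeq start (minus strand, chr12:76962246-76962498). In GENCODE M21 Max begins at 76962201, downstream of that RefSeq start, so the E-box lies before the gene there. The last 25 bases of the Max window were in no GENCODE transcript of Max, unlike those of the other windows.
Mxd4: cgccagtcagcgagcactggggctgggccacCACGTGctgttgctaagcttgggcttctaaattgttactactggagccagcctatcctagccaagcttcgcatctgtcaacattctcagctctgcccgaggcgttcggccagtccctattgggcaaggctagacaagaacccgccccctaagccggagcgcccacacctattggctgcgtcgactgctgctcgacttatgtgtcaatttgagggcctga
Mnt: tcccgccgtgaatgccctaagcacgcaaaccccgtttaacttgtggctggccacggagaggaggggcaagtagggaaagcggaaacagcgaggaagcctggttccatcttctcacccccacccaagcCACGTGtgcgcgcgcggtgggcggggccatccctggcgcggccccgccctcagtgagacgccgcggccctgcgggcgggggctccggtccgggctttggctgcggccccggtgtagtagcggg
Max: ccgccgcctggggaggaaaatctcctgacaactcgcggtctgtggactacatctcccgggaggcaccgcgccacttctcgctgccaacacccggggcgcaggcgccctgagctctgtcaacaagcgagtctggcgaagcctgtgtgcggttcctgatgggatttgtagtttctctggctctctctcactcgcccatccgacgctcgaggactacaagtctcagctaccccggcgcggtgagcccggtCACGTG

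Before stimulation Mycl was the main MYC-type gene of these cells. Compared per length, as TMM-scaled counts per kilobase of exon and library size (RPKM), untreated cells held 33.2 ± 2.25 of Mycl (SD, n = 3) and 5.01 ± 0.413 of Myc, a ratio of 6.66 ± 0.804. The order of levels in untreated cells was Mycl, Max (26.7 RPKM), Mnt (21.3), Mga (18.3), Mxd4 (8.22), Mxd1 (5.42), Myc (5.01), Mxd3 (4.0) and Mxi1 (2.28), with Mycn last at 0.0591. Mxd1 and Myc overlapped between libraries, and no other neighbours in this order did. With the length of the longest transcript in place of all exons, Max came before Mycl.

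Mycn, the MYC-type member known from neural progenitors, had 18 counts over all 18 libraries and at most 4 in any of them. It gave 7 counts in the 3 untreated libraries and 1 in the 3 imiquimod libraries at 6 h. These counts do not allow a comparison, and no fold was computed.

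At 0 h, Myc, Mycl and the other tested members did not differ between vehicle and untreated cells past the threshold. With edgeR's quasi-likelihood test and a Benjamini-Hochberg adjusted p below 0.05 as the call, 0 of the 9 tested members were called, and the share called over all 14876 tested genes was also 0%. At an unadjusted p under 0.05 there were 0 members and 708 genes, and DESeq2 called 0 of both. The largest of the 9 log2 differences was that of Myc, -0.10 (SE 0.0937, adjusted p = 0.980).

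In the vehicle alone, Myc and Mnt fell with time while Mycl and Mxd4 rose. At 6 h against 0 h, 3 members rose, 3 fell and 3 were not called, beside 52.9% of all genes called (26% higher and 26.9% lower). At 16 h against 0 h, 5 rose and 4 fell, beside 58.4% (28.4% and 30%). The median log2 change of the 9 members was 0.02 at 6 h and 0.20 at 16 h, and that of all genes 0.01 and 0.00. All of these comparisons share the vehicle libraries at 0 h.

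Myc lay at 12.9, 12.9 and 12.4 CPM in the vehicle at 0 h, at 4.98, 4.4 and 3.61 at 6 h, and at 3.22, 3.46 and 4.09 at 16 h. Every library of the later times was below every library at 0 h, with log2 changes of -1.55 (SE 0.119, adjusted p = 1.89e-19) and -1.82 (SE 0.129, adjusted p = 1.53e-21). Those later levels rest on 35 to 64 counts per library. Mnt, a broadly expressed repressor member, went from 95.9, 95.7 and 97.6 CPM to 51.9, 51.9 and 55.6 CPM at 6 h, a log2 change of -0.86 (SE 0.0495, adjusted p = 3.09e-26), and its 16 h libraries lay in the same range (51.9 to 54.7 CPM).

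Mycl rose from 130, 122 and 124 CPM to 156, 190 and 173 CPM at 6 h, a log2 change of 0.47 (SE 0.0503, adjusted p = 4.63e-10). The 6 h vehicle libraries spread more than those of any other group, and the pair of replicates 1 and 2 differed most over all genes. Mxd4, a repressor member found mainly in differentiated cells, rose from 69.9, 65.9 and 63.2 CPM to 109, 111 and 110 CPM at 6 h and reached 119, 126 and 119 CPM at 16 h. Its log2 changes against 0 h were 0.73 (SE 0.0490, adjusted p = 1.57e-22) and 0.87 (SE 0.0491, adjusted p = 5.11e-27).

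A second group of members moved in the vehicle between 6 and 16 h. Mxd1, the repressor member first described as MAD1, stayed at 38.0 to 41.9 CPM at 6 h and rose to 80.9, 73.7 and 76.9 CPM at 16 h, a log2 change from 6 h of 0.94 (SE 0.0513, adjusted p = 4.16e-27). Mxd3, the family member that is expressed in cycling cells, went the other way, from 8.56, 9.64 and 9.27 CPM at 6 h to 2.94, 3.46 and 2.87 CPM at 16 h (log2 -1.56, SE 0.166, adjusted p = 8.70e-13). The vehicle comparison of 16 h with 6 h called 4 of the 9 members, 3 higher and 1 lower, beside 30% of all genes (14.6% and 15.4%). The other called members were Mxd4 (log2 0.14, adjusted p = 0.0136, lost without replicate 2 of the 16 h vehicle at 0.0956) and Mga (0.19, adjusted p = 3.59e-06).

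**Figure D1:**
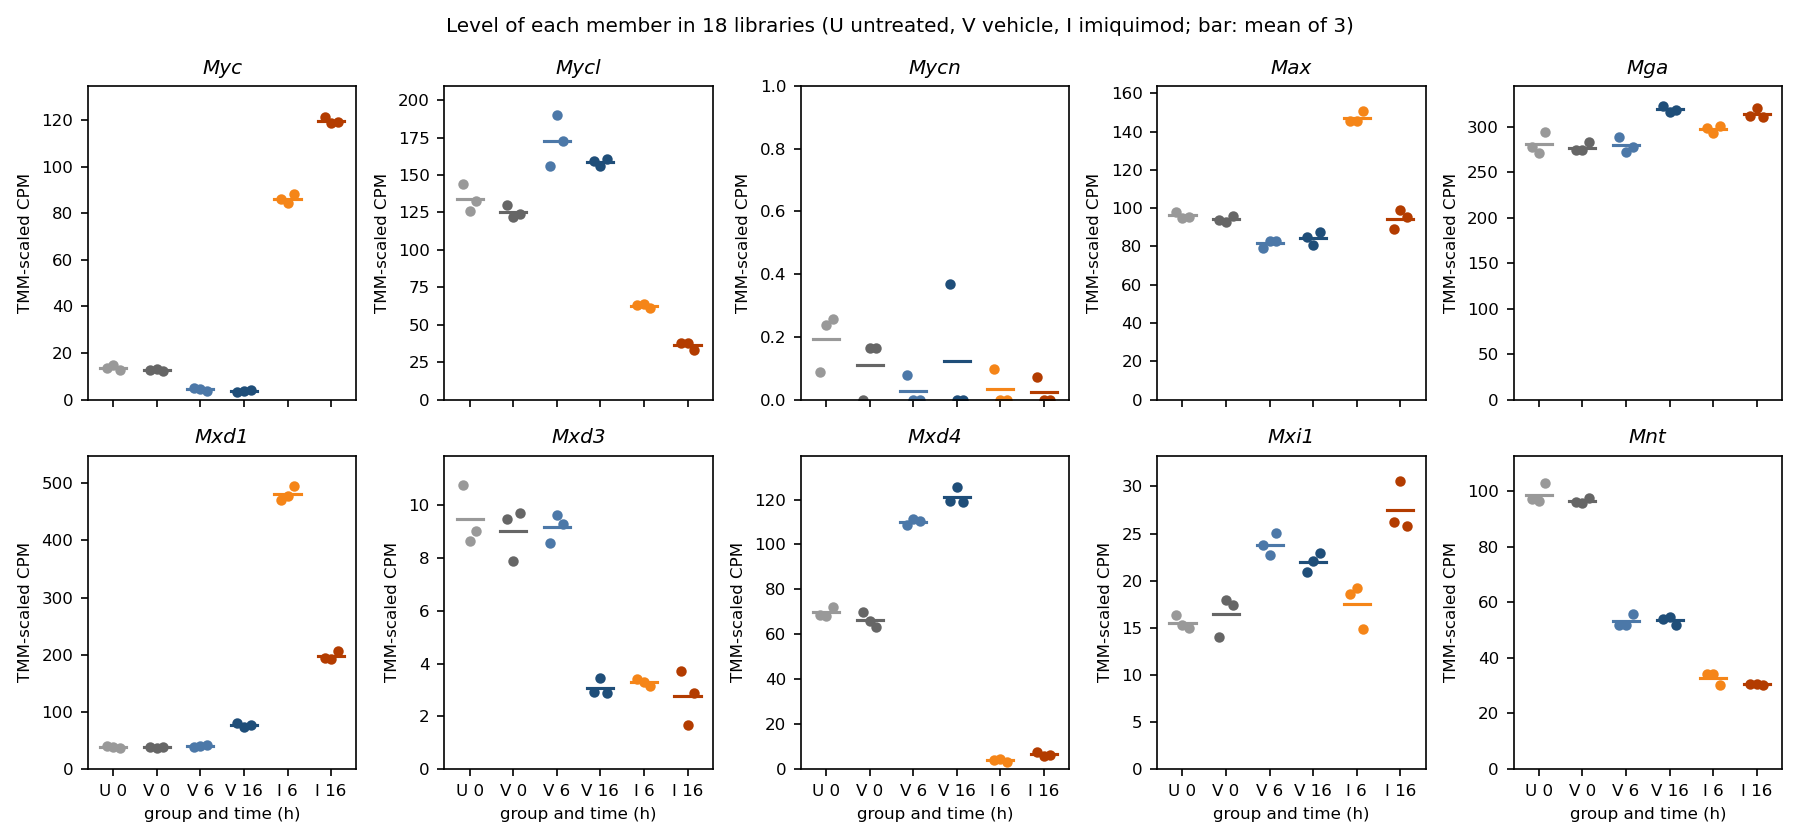
Level of each of the 10 members in TMM-scaled CPM (vertical axes, linear and starting at 0) in untreated cells (U), vehicle (V) and imiquimod (I) at 0, 6 and 16 h. Each dot is 1 library and each bar the mean of 3. Myc and Mxd1 stand far above the vehicle with imiquimod, Mycl, Mxd4 and Mnt lie below it at both times, and Mxd4 is at 3.04 to 7.46 CPM in the 6 imiquimod libraries.

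With imiquimod, Myc, Max and Mxd1 were higher than in the vehicle of the same time at both times, and Mycl, Mxd4 and Mnt were lower at both. At 6 h, 4 members were called higher and 5 lower, 9 of 9, beside 76.9% of all genes called (37.7% higher and 39.2% lower). The 16 h comparison called 4 members higher and 3 lower, beside 77.2% (39.1% and 38.1%). In each comparison most genes of the cells were called, so the counts of members say little and the sizes of the changes carry the description. The median log2 difference of the 9 members was -0.44 at 6 h and -0.02 at 16 h, and that of all genes -0.04 and 0.00.

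Myc (chr15:61985391-61990374, plus strand, GRCm38, as are all gene positions given here) lay at 86.3, 84.2 and 88.3 CPM with imiquimod at 6 h, where the vehicle libraries held 3.61 to 4.98. At 16 h it lay at 121, 119 and 119 CPM with imiquimod, where the vehicle libraries held 3.22 to 4.09. The groups were far apart at both times, a 19.8-fold difference at 6 h (log2 4.31, SE 0.0838, adjusted p = 5.77e-59) and a 33.2-fold difference at 16 h (log2 5.05, SE 0.0840, adjusted p = 1.88e-63). Part of each ratio is the fall of Myc in the vehicle: against the vehicle at 0 h, imiquimod cells held 6.78-fold more Myc at 6 h and 9.40-fold more at 16 h.

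Mycl (chr4:122995652-123002485, plus strand) changed in the other direction. Its level was 63.1, 63.9 and 61.2 CPM with imiquimod at 6 h and 37.6, 37.9 and 33.2 CPM at 16 h, below all 12 libraries without imiquimod, which held 122 to 190. Against the vehicle of the same time it was 2.76-fold lower at 6 h (log2 -1.46, SE 0.0568, adjusted p = 7.21e-24) and 4.37-fold lower at 16 h (log2 -2.13, SE 0.0605, adjusted p = 2.18e-28). Markers of other dendritic cells moved in the same direction, and their part in the result was not tested: the 6 cDC1 markers summed to 1364 to 1379 CPM in the vehicle and 542 to 570 CPM with imiquimod at 6 h, and to 1176 to 1223 CPM and 492 to 528 CPM at 16 h. The 5 cDC2 markers summed to 282 to 296 CPM in the vehicle and 149 to 155 CPM with imiquimod at 6 h. At 16 h these sums were 283 to 291 CPM and 123 to 125 CPM. Cd209a was then at 0 in all 3 imiquimod libraries, and Clec10a, Mgl2 and Sirpa also had lower means. Itgam went the other way at 16 h, with means of 4.95 CPM in the vehicle and 6.30 CPM with imiquimod. The 10 pDC markers summed to 7210 to 7369 CPM in the vehicle and 6155 to 6391 CPM with imiquimod at 6 h, and to 8793 to 8891 CPM and 4306 to 4386 CPM at 16 h. The pDC markers went both ways at 6 h. Mean Siglech went from 1154.5 CPM in the vehicle to 298.8 with imiquimod, Ccr9 from 637 to 110 and Runx2 from 1019 to 495. Irf8 and Cox6a2 also had lower means. Ly6d went from 173 to 583 CPM and Spib from 443 to 861, and Bst2, Tcf4 and Klk1 also had higher means. The 6 monocyte and macrophage markers summed to 193 to 213 CPM in the vehicle and 148 to 152 CPM with imiquimod at 6 h, and to 204 to 211 CPM and 60.3 to 73.5 CPM at 16 h. They did not move as a group at 6 h: mean Csf1r went from 119.9 to 21.4 CPM, while Ly6c2 went from 49.7 to 84.6 CPM and Fcgr1 from 0.369 to 16.8 CPM. The sum of the 6 B cell markers was 81.2 to 90.8 CPM in the vehicle and 162 to 174 CPM with imiquimod at 6 h, which Pax5 carried, at 18.9 and 112 CPM. Cd79a (11.97 and 4.43 CPM), Ms4a1 (25.3 and 19.3), Ebf1 (11.8 and 9.18) and Vpreb3 (0.237 and 0.0981) had lower means with imiquimod. These shifts stand beside every imiquimod comparison of the members.

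Myc replaced Mycl as the more abundant transcript of the pair. Per length, Myc made up 13.1% ± 1.46 (SD, n = 3) of the summed Myc, Mycl and Mycn level in untreated cells, 3.62% ± 0.794 in the vehicle at 6 h and 3.25% ± 0.371 at 16 h. Its share with imiquimod was 67.1% ± 1.01 at 6 h and 83.1% ± 1.02 at 16 h. The sum of the 3 genes moved much less than its parts, from 44.4 ± 4.05 RPKM in the vehicle to 47.3 ± 0.421 with imiquimod at 6 h, where the ranges of the 3 libraries overlapped, and from 40.6 ± 0.765 to 53.0 ± 0.913 at 16 h, where they did not. The small rise of the sum at 6 h depends on the scaling. TMM factors there were 0.82 to 0.84 with imiquimod and 1.04 to 1.07 in the vehicle. With library totals the sum at 6 h would be lower with imiquimod than in the vehicle.

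Max (chr12:76937269-76962201, minus strand), the shared partner, was at 146, 145 and 151 CPM with imiquimod at 6 h, above the 78.9, 82.7 and 83.0 CPM of the vehicle (log2 0.85, SE 0.0433, adjusted p = 1.22e-30). By 16 h the difference had shrunk to 89.1, 99.2 and 95.1 CPM against 84.9, 80.9 and 87.5, which did not overlap (log2 0.16, SE 0.0449, adjusted p = 8.55e-04). Against the vehicle at 0 h the 16 h value was 0.00 (log2, SE 0.0437, adjusted p = 0.930).

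Mxd1 (chr6:86647042-86669161, minus strand) showed the second largest increase of the network. It was at 471, 478 and 494 CPM with imiquimod at 6 h, an 11.9-fold difference from the vehicle (log2 3.58, SE 0.0433, adjusted p = 1.99e-73). At 16 h it had come down to 194, 193 and 206 CPM, still above the vehicle's 80.9, 73.7 and 76.9 (2.56-fold, log2 1.36, SE 0.0416, adjusted p = 5.59e-45). Per length, Mxd1 was the most abundant of the 10 members in imiquimod cells at 6 h, at 68.0 ± 1.68 RPKM.

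Mxd4 (chr5:34173883-34187720, minus strand) had the largest decrease. Against 109, 111 and 110 CPM in the 6 h vehicle, the imiquimod libraries held 4.22, 4.65 and 3.04 CPM, which are 43, 48 and 31 counts. That is 27.6-fold lower (log2 -4.79, SE 0.0863, adjusted p = 2.57e-61). At 16 h the level was 7.46, 5.71 and 6.33 CPM, 18.6-fold below the vehicle (log2 -4.22, SE 0.0727, adjusted p = 2.34e-62). Its exons overlap those of an antisense gene, Gm42846, over 6.06% of their length, and Gm42846 had 12 counts in the whole series.

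Mxd1 and Mxd4, 2 repressor members of one family, therefore exchanged rank. Per length, Mxd4 exceeded Mxd1 by a factor of 1.52 ± 0.105 (SD, n = 3) in untreated cells and of 2.28 ± 0.0964 in the vehicle at 6 h. With imiquimod Mxd1 exceeded Mxd4 by a factor of 151 (123 to 195 in the 3 libraries) at 6 h and of 36.9 (31.2 to 40.5) at 16 h.

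Mnt (chr11:74830920-74845725, plus strand) was at 34.1, 34.3 and 30.1 CPM with imiquimod at 6 h and at 30.7, 30.6 and 30.1 CPM at 16 h, below the vehicle's 51.9 to 55.6 and 51.9 to 54.7. The log2 differences were -0.69 (SE 0.0602, adjusted p = 9.81e-18) and -0.81 (SE 0.0590, adjusted p = 1.44e-21). The fall of Mnt with imiquimod thus added to the fall it showed in the vehicle, and against the vehicle at 0 h Mnt was 2.93-fold lower at 6 h and 3.16-fold lower at 16 h.

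Mxd3 (chr13:55325168-55329823, minus strand) reached with imiquimod at 6 h the level that the vehicle reached at 16 h. It was at 3.43, 3.29 and 3.14 CPM with imiquimod at 6 h against 8.56 to 9.64 CPM in the vehicle (log2 -1.47, SE 0.168, adjusted p = 1.13e-12). At 16 h the groups overlapped, at 3.73, 1.65 and 2.89 CPM with imiquimod and 2.87 to 3.46 CPM with vehicle (log2 -0.16, SE 0.213, adjusted p = 0.492). Without replicate 2 of imiquimod at 16 h, the lowest library at 22 counts, that value was 0.10 (adjusted p = 0.685). Prelid1, on the opposite strand, overlaps 4.43% of the Mxd3 exons and had 21057 counts in the series, where Mxd3 had 1331. The strand setting of the counting is not given in the sources used here, and the part of Prelid1 reads in the Mxd3 counts was not tested.

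Mxi1 (chr19:53310518-53375810, plus strand), also called Mad2, a MAX-binding repressor member, was lower with imiquimod at 6 h and higher at 16 h. Its 3 libraries lay at 18.6, 19.2 and 14.8 CPM against 22.7 to 25 CPM at 6 h (log2 -0.44, SE 0.0909, adjusted p = 1.23e-05). At 16 h they lay at 26.2, 30.6 and 25.8 CPM against 20.9 to 23.0 CPM (log2 0.32, SE 0.0825, adjusted p = 3.13e-04). Mxi1 was the 1 member called against the vehicle in opposite directions at 6 h and 16 h.

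Mga (chr2:119897228-119969581, plus strand), a large protein that carries a second DNA-binding domain, was the steadiest member, between 271 and 323 CPM in all 18 libraries. With imiquimod at 6 h it was called higher by 0.09 (log2, SE 0.0342, adjusted p = 0.0144), but this turned to -0.26 (adjusted p = 1.92e-10) when libraries were scaled by their totals. The call was also lost without any of the 6 libraries at 0 h, without replicate 2 or 3 of the vehicle at 6 h, and without replicate 1 or 2 of imiquimod at 16 h (log2 0.05 to 0.07). At 16 h the difference was -0.02 (SE 0.0335, adjusted p = 0.546).

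Scaling mattered for the small differences at 6 h because library totals moved the median of all genes there from -0.04 to -0.39. Under that scaling the differences of Max, Mxi1 and Mnt at 6 h were 0.50, -0.79 and -1.04, in the same direction and called. Those of Myc, Mycl, Mxd1, Mxd3 and Mxd4 at 6 h and of all 9 at 16 h kept their direction and their call or lack of one.

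**Figure D2:**
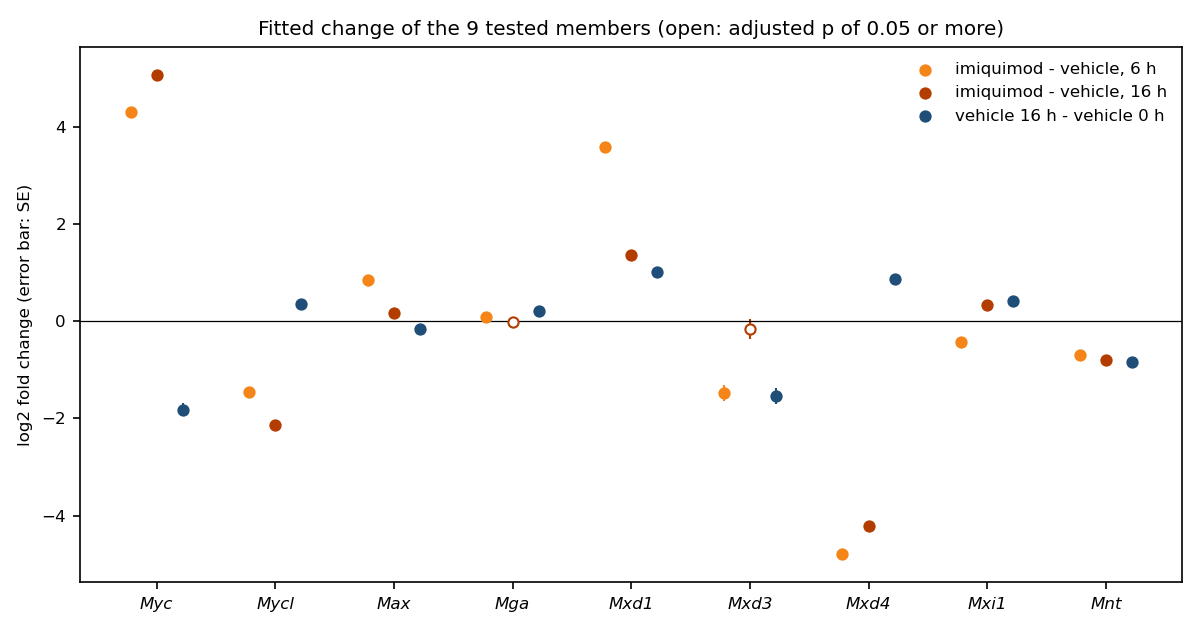
Fitted log2 fold change (vertical axis) of the 9 tested members for imiquimod against vehicle at 6 h and 16 h and for vehicle at 16 h against vehicle at 0 h. Bars are SEs and open circles are values that were not called. Imiquimod values run from -4.79 for Mxd4 to 5.05 for Myc, and those of Mga lie near 0.

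The imiquimod effects at 6 h and 16 h differed for 8 of the 9 members in a test of the difference itself (interaction term), 4 higher at 16 h and 4 lower, beside 56.9% of all genes (28.5% and 28.4%). For Mxd1 the effect was smaller at 16 h, with a log2 difference of -2.22 (SE 0.0621, adjusted p = 4.15e-46). Max differed by -0.69 (SE 0.0625, adjusted p = 2.13e-16). The effect on Mycl became more negative, the difference being -0.67 (SE 0.0855, adjusted p = 1.71e-08), and that on Myc more positive, by 0.74 (SE 0.170, adjusted p = 1.13e-04). For Mxd4 the decrease was less deep at 16 h, by 0.57 (SE 0.158, adjusted p = 0.00130). Mxi1 differed by 0.76 (SE 0.123, adjusted p = 1.14e-07) and Mxd3 by 1.31 (SE 0.276, adjusted p = 3.06e-05). The difference of Mga, -0.11 (SE 0.0478, adjusted p = 0.0391), became 0.22 with library totals and lost its call in 16 of the 18 fits that left out 1 library. That of Mnt was -0.12 (SE 0.0850, adjusted p = 0.243) and 0.22 with library totals. Under that scaling Mycl differed by -0.33, Max by -0.36 and Mxd4 by 0.91, each still called.

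Between the imiquimod groups themselves, 4 members were higher at 16 h than at 6 h, 3 lower and 2 not called, beside 63.7% of all genes (31.9% and 31.8%). The smallest of the 4 was Mga (log2 0.08, SE 0.0338, adjusted p = 0.0377). Its call was lost with DESeq2 size factors, with DESeq2's Wald test and in 3 of the 18 fits that left out 1 library. Myc was higher at 16 h by 0.47 (log2, SE 0.0480, adjusted p = 2.22e-14; 0.77 with library totals). Mycl differed by -0.79 (SE 0.0697, adjusted p = 1.21e-12; -0.49 with library totals), Max by -0.64 (-0.34 with library totals) and Mxd1 by -1.28. Mxd4 was 1.64-fold higher at 16 h (log2 0.71, SE 0.15, adjusted p = 2.45e-05), at a level still 10.2-fold below the vehicle at 0 h.

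Against the vehicle at 0 h, a comparison that holds both imiquimod and time, 4 members were higher and 4 lower at each time. Of all genes 75.4% were called at 6 h (36.7% and 38.7%) and 75.5% at 16 h (38.8% and 36.8%). Mxi1 was the member not called at 6 h (log2 0.09, adjusted p = 0.385), but it was called lower with library totals, at -0.27 (adjusted p = 0.0122). Mga, called higher at 6 h by 0.10, was also called lower under that scaling, at -0.26 (adjusted p = 2.90e-10). That left 3 members higher and 6 lower there, beside 79.2% of all genes called either way. Max was the one not called at 16 h.

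The order of the members per length was redrawn by imiquimod. In the vehicle at 6 h it was Mycl (42.8 RPKM), Max (22.7), Mga (18.2), Mxd4 (13), Mnt (11.5), Mxd1 (5.71), Mxd3 (3.87), Mxi1 (3.49) and Myc (1.59). Mxd3 and Mxi1 were the only neighbours there with overlapping libraries. With imiquimod at 6 h the order was Mxd1 (68.0), Max (40.9), Myc (31.7), Mga (19.4), Mycl (15.5), Mnt (7.10), Mxi1 (2.57), Mxd3 (1.39) and Mxd4 (0.468), with no overlap between neighbours. At 16 h Myc led at 44.0 RPKM, Mxd1 (27.9) and Max (26.3) overlapped behind it, and Mga (20.5), Mycl (8.97), Mnt (6.59) and Mxi1 (4.04) followed. Mycn was last in every group.

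The summed level of the repressor members Mxd1, Mxd3, Mxd4, Mxi1, Mnt and Mga peaked with imiquimod at 6 h. It was 55.7 ± 0.791 RPKM (SD, n = 3) in the vehicle and 99.0 ± 0.865 with imiquimod at 6 h, and 62.1 ± 0.567 and 61.0 ± 0.613 at 16 h. The ratio of the summed Myc, Mycl and Mycn level to this sum was 0.797 ± 0.0748 in the vehicle and 0.478 ± 0.00463 with imiquimod at 6 h, and 0.655 ± 0.0172 and 0.869 ± 0.0231 at 16 h. The libraries of the compared groups did not overlap in this ratio, with the lower value under imiquimod at 6 h and under vehicle at 16 h. With the length of the longest transcript the ratios were lower, 0.692 and 0.398 at 6 h and 0.562 and 0.769 at 16 h, with the same order. These are sums of transcripts and say nothing of protein.

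**Figure D3:**
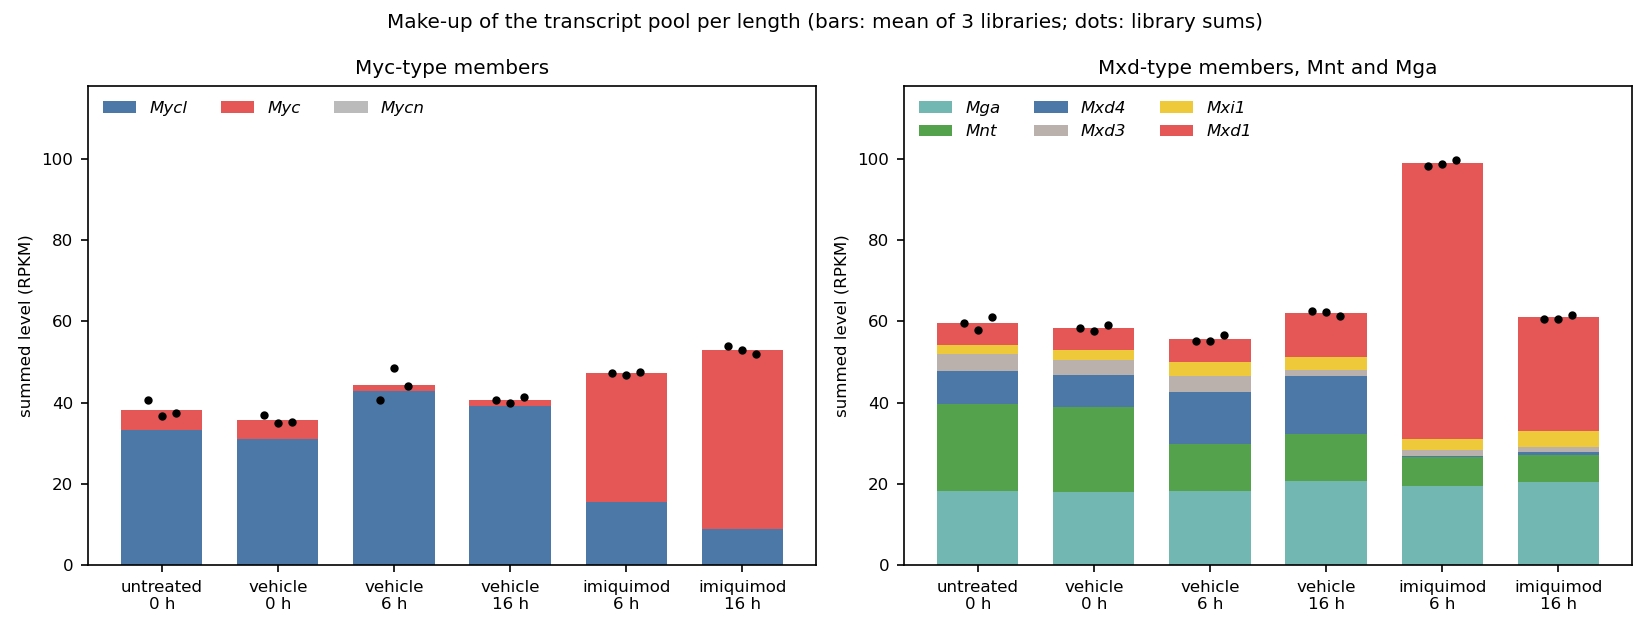
Summed level per length (RPKM, vertical axes from 0) of Myc, Mycl and Mycn (left) and of the 6 repressor members (right) in the 6 groups. Stacked bars are means of 3 libraries and dots are the sums of single libraries. Mycl fills most of the left bars without imiquimod and Myc most of them with it. Mxd1 makes up 68.0 of the 99.0 RPKM in the right bar of imiquimod at 6 h.

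Genes that MYC is known to activate were mostly higher with imiquimod, and most of them more so at 16 h. The list was chosen with earlier results of these data known, and the part of Myc in these changes was not tested. Of 39 listed growth genes, all tested, 35 were higher, 3 lower and 1 not called at 6 h, beside 37.7% of all genes higher and 39.2% lower. The median log2 difference was 1.19, and -0.04 for all genes. At 16 h, 38 were higher and 1 lower, beside 39.1% and 38.1% of all genes, with a median of 1.74 beside 0.00. The difference between the effects, 16 h minus 6 h, was called higher for 31, lower for 4 and not called for 4. Of all genes 28.5% and 28.4% were called higher and lower in that test. With library totals the counts at 6 h were 28 higher and 6 lower, beside 80.2% of all genes called either way under that scaling. The median there was 0.84 beside -0.39 for all genes. In the vehicle the same list fell: 0 genes were higher and 35 lower at 6 h against 0 h, beside 26% and 26.9% of all genes (median -0.37, and 0.01 for all genes). At 16 h, 0 were higher and 36 lower, beside 28.4% and 30% (median -0.60, and 0.00 for all genes).

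Within this list Ccnd2, a D-type cyclin, had the largest difference, from 42.9 CPM in the vehicle to 4219 CPM with imiquimod at 6 h (log2 6.62, SE 0.0454, adjusted p = 1.44e-90). Mthfd2, a mitochondrial enzyme of one-carbon metabolism, was higher by 2.51 and Odc1, which starts polyamine synthesis, by 2.50 at 6 h. At 16 h the next after Ccnd2 (5.88) were Srm, the spermidine synthase, at 2.83 and Hspd1, a mitochondrial chaperonin, at 2.58. The exception at both times was Tfrc, the transferrin receptor, at -1.76 and -0.73. At 6 h Fbl (-0.28) and Cdk4 (-0.13) were also lower and Ldha (0.02, adjusted p = 0.612) was not called, and these 4 genes were named after their values were seen because they are the exceptions.

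The 24 listed cofactors and turnover factors of MYC changed less and depended on the scaling at 6 h: 16 were higher and 5 lower (median 0.31, and -0.04 for all genes), but 6 higher and 11 lower with library totals (median -0.04, and -0.39 for all genes). At 16 h, 19 were higher and 3 lower (median 0.57, and 0.00 for all genes), and 19 and 4 with library totals. The share of all genes called was 76.9% at 6 h, 80.2% there with library totals, and 77.2% at 16 h. At 6 h the largest differences were those of Hdac1 (1.24) and Sin3b (0.99), parts of the co-repressor complex that MXD proteins recruit, and of Kat5 (0.80), an acetyltransferase. At 16 h they were those of Pcgf6 (1.54), a polycomb protein found in complexes with MGA, and of Ruvbl1 (1.52) and Ruvbl2 (1.47), ATPases of chromatin remodelling complexes. Named because they are few, the lower genes were Cip2a, Usp28, L3mbtl2, Aurka and Gsk3b at 6 h (log2 -0.64 to -0.28) and Usp28, Gsk3b and Trrap at 16 h (-0.80 to -0.19).

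MLX, a parallel partner that also binds MXD1, MXD4 and MNT, was higher with imiquimod at both times (Mlx, log2 0.61 and 0.26). Its own partner gene Mlxip differed by 0.39 at 6 h and by 0.02 at 16 h (adjusted p = 0.634). Of these 2 tested genes, 1 was called at 6 h with library totals, beside 80.2% of all genes, and Mlxipl did not pass the filter.

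Of 6 cell cycle inhibitor genes that MYC is known to repress, 2 were higher and 3 lower at each time. These 5 of 6 calls stand beside 76.9% of all genes called at 6 h and 77.2% at 16 h, so the count is no result about the list. Cdkn1a, which encodes p21, was higher by 3.65 at 6 h and 1.90 at 16 h, and Cdkn2b, which encodes p15, by 2.53 and 2.12. The log2 differences were -1.62 and -1.93 for Gadd45a, -1.38 and -1.16 for Cdkn2c, and -0.30 and -0.50 for Cdkn1b. Cdkn1c was not called at either time. Cdkn1a and Cdkn2b differed in the direction opposite to the list's name. The median of the list was -0.39 at 6 h (-0.73 with library totals) and -0.71 at 16 h (-0.72 with library totals).

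The difference between imiquimod and vehicle in proliferation genes separated the 2 times. Of 19 listed genes, 7 were higher and 9 lower with imiquimod at 6 h (median -0.11), or 5 and 12 with library totals (median -0.46). Library totals called 80.2% of all genes at 6 h. At 16 h, 17 were higher and 0 lower (median 1.49). Of all genes 37.7% were higher and 39.2% lower at 6 h, and 39.1% and 38.1% at 16 h. At 6 h the largest differences were those of Tyms (1.43), Ccnb2 (-1.22), a mitotic cyclin, and Mcm2 (1.14), and at 16 h Ccnb2 (-0.18, adjusted p = 0.129) and E2f2 (0.11, adjusted p = 0.404) were not called. The difference between the effects was called higher at 16 h for 19 of 19, beside 28.5% of all genes. Both arms enter it. In the vehicle, 0 were higher and 18 lower at 16 h against 6 h (median -1.44), beside 14.6% and 15.4% of all genes. Between the imiquimod groups, 9 were higher and 7 lower at 16 h (median 0.16), beside 31.9% and 31.8%. With library totals the latter counts were 13 and 0 (median 0.46), beside 70.2% of all genes called either way. The largest differences between imiquimod and vehicle at 16 h were those of Mcm3 (3.19), Mcm5 (2.88) and Tyms (3.05). Mcm3 and Mcm5 encode subunits of the replicative helicase, and Tyms encodes thymidylate synthase. The vehicle had 0 of the 19 higher and 19 lower at 16 h against 0 h (median -1.57), beside 28.4% and 30% of all genes. Against the vehicle at 0 h, imiquimod at 16 h had 9 higher and 9 lower (median -0.06), beside 38.8% and 36.8%.

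**Figure D4:**
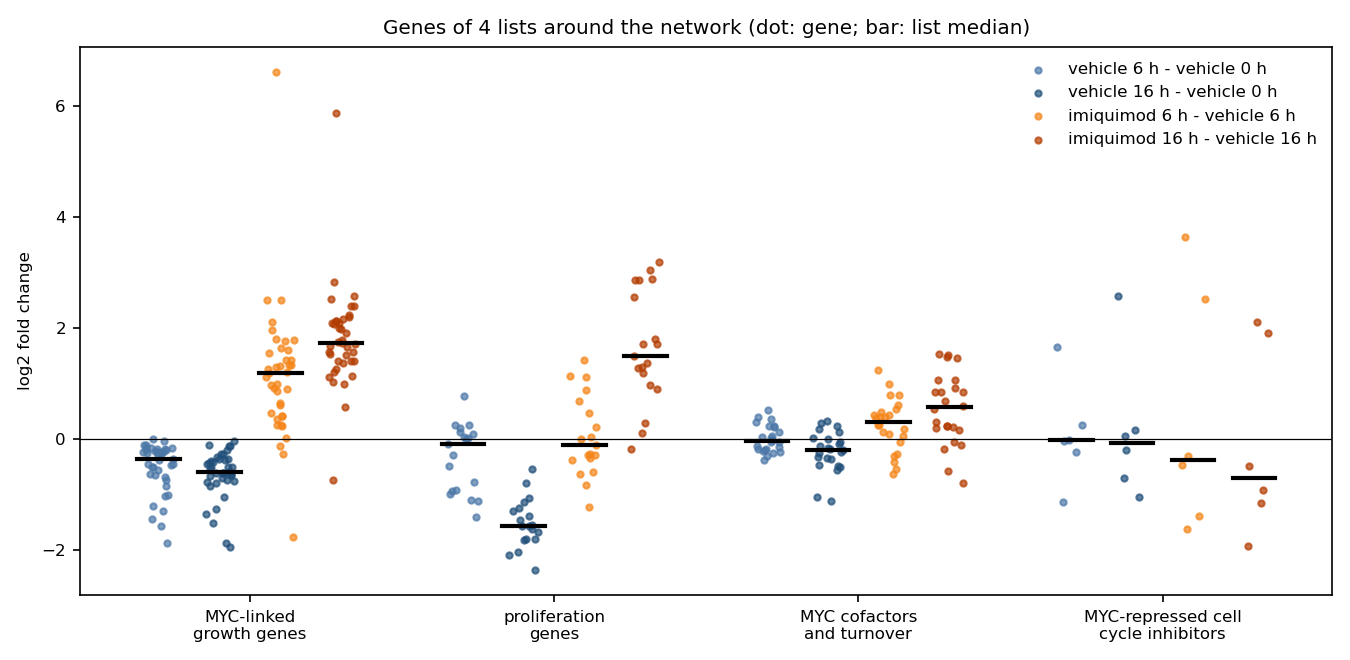
Log2 fold change (vertical axis) of every tested gene in 4 lists for vehicle at 6 h and 16 h against vehicle at 0 h, and for imiquimod against vehicle at 6 h and 16 h. Each dot is 1 gene and each bar the median of the list. Growth genes lie mostly below 0 in the vehicle and above 0 with imiquimod, and proliferation genes have a median of -0.11 with imiquimod at 6 h and 1.49 at 16 h.

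The genes whose levels followed those of Myc and Mycl most closely were sought by Pearson correlation of log2 CPM over the 18 libraries among 8472 genes, as a description, since the libraries share their groups and treatment. For Myc they were Larp4 (r = 0.996), an RNA-binding protein, Nop56 (0.994) and Ppan (0.992), ribosome biogenesis factors, Psma3 (0.993), a proteasome subunit, and Suz12 (0.992), a polycomb protein. Their range was far smaller than that of Myc: Larp4 went from 120 CPM in the vehicle at 6 h to 227 CPM with imiquimod. For Mycl they were Celsr1 (0.993), an adhesion receptor, Cyp27a1 (0.991), a sterol hydroxylase, Acaa2 (0.991), an enzyme of fatty acid oxidation, Plxdc2 (0.990) and Cyb561a3 (0.990). Celsr1 went from 109 to 26.2 CPM and Cyp27a1 from 61.6 to 8.55 CPM between vehicle and imiquimod at 6 h.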

How the data were processed

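Raw counts per gene for 18 libraries were used as the authors deposited them, as whole numbers for 54532 genes. The submitters' processing notes name STAR and mm10. The counting program, its strand setting and the annotation release are not given in the sources used here. Gene positions and exon lengths came from GENCODE M21 (GRCm38, the assembly called mm10), in which 54495 identifiers were found with the version ignored.

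A common model over the 6 groups was fitted by edgeR 4.0.16 under R 4.3.3, with filterByExpr (minimum count 10), TMM scaling, robust dispersions and the quasi-likelihood test. P-values were adjusted by Benjamini-Hochberg over the 14876 tested genes within a comparison and called under 0.05. The SE is the absolute log2 fold change divided by the square root of F, and it understates the error where a large change rests on few counts. The common biological coefficient of variation was 3.08%. CPM and RPKM are TMM-scaled. No pair of replicate libraries was identical.

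Members and gene lists were chosen with earlier results of these data known. All members are named. Of each list the 3 called genes with the largest absolute change at 6 h and 16 h are named, and of the genes most like Myc and Mycl, 5 each with a mean of at least 10 CPM (prior count 2), gene models left out. Alternatives were DESeq2 size factors, library totals, 2 other filters, a replicate block, only the groups compared, DESeq2's Wald test and each library left out. The fit was checked on simulated data.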

Additional observations from a re-analysis of the deposited data

Results flagged for a closer look

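The effect of imiquimod against the vehicle of the same time differed between 16 h and 6 h for 8 of 9 tested members in edgeR's test of the difference, with 3 libraries in each of the 4 groups. Of all tested genes, 56.9% were called in that test. The log2 difference (16 h minus 6 h) was 0.74 for Myc, -0.67 for Mycl, -0.69 for Max, -2.22 for Mxd1, 1.31 for Mxd3, 0.57 for Mxd4, 0.76 for Mxi1 and -0.11 for Mga. The value of Mga did not hold: it lost its call in 16 of the 18 fits that left out 1 library, all but those without replicate 1 of the vehicle or replicate 2 of imiquimod at 6 h (log2 -0.12 to -0.08). That of Mxd1 ran from -2.25 to -2.16. The level of Mxd1 in the vehicle rose between the times while its level with imiquimod fell, so both arms enter its value. Mxd3 fell in the vehicle (log2 -1.56), and its difference between the imiquimod groups was not called (-0.25, adjusted p = 0.312).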

How the results depend on the processing

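The number of members called in each of the 10 comparisons stayed within 1.5 times its value under every alternative run. Each of 90 member values was recomputed. With a filter of 1 CPM in 3 libraries 90 kept direction and call, and with DESeq2's Wald test (1.42.0) or its size factors 89 did, Mga between the imiquimod groups being lost in both. Library totals reversed 10: Mga at 6 h (-0.26), Mnt (0.22) and Mga (0.22) in the difference of effects, Mxd3 (0.0454) and Mnt (0.19) between the imiquimod groups, Mga between vehicle and untreated cells (0.0044), Mnt between the later vehicle times (-0.0278), and against the vehicle at 0 h Mxi1 (-0.27) and Mga (-0.26) with imiquimod at 6 h and Max (-0.0596) at 16 h. Without a filter, Mnt between the later vehicle times was -0.0015, and with only the groups compared in the fit, Max at 16 h against the vehicle at 0 h was -0.01; the cause was not tested. Changed calls without a change of direction were few: Mga at 6 h and in the difference of effects was lost without a filter (0.0536 and -0.075) and with only the groups compared (0.074 and -0.0959). Between the later vehicle times Mycl was called without a filter (-0.1363) and with library totals (-0.1618), which lost Mxd4 (0.1024). Leaving out 1 library at a time kept direction and call in 1570 values, gave 30 lost and 5 gained calls, and reversed 15 values that were near 0 and not called: Mxd3 at 16 h ran from -0.46 to 0.10, between the imiquimod groups from -0.53 to 0.0317, between vehicle and untreated cells from -0.13 to 0.0342 and in the vehicle at 6 h against 0 h from -0.0572 to 0.0873. The same held for Mxd1 (-0.0235 to 0.0346) and Mga (-0.045 to 0.0119) between vehicle and untreated cells, Mnt between the later vehicle times (-0.0078 to 0.0427), and against the vehicle at 0 h for Mxi1 with imiquimod at 6 h (-0.0222 to 0.22) and Max at 16 h (-0.0282 to 0.0509). Replicate numbers gave no sign of pairing: over 45 same-numbered pairs the correlation of deviations ran from -0.242 to 0.084 (median -0.003). Over 90 other-numbered pairs it ran from -0.198 to 0.269 (median -0.002). Low correlations cannot show whether a number marks a shared mouse or culture. With a replicate block the fit called 9 members at 6 h and 7 at 16 h, the counts found without it, and 90 of 90 values kept direction and call. Depth limits Mycn and, at 22 to 51 counts in 16 h imiquimod libraries, Mxd3.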
